A study of Homo sapiens with 68 samples.

Results

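The 4 hnRNP C libraries made without gel purification were chosen by their titles, out of 68 libraries in the series, and set against 12 libraries of hnRNPA1, hnRNPI and RBFOX2 made the same ways. The study used TLC-CLIP, in which ultraviolet light crosslinks proteins to RNA, 1 protein is immunoprecipitated, and the RNA fragments held by it are sequenced. All libraries came from HEK293T, an established human embryonic kidney cell line, with 50000 cells and 0.005 U of RNase for each of these 16. Each protein has 2 libraries titled 50k_noPAGE, which skipped PAGE, the separation and excision of complexes on a polyacrylamide gel, and 2 titled 50k_noPAGE_RecJ, which also had a RecJ exonuclease digestion against leftover adapter. The antibodies were hnRNP C1/2 (4F4) for hnRNP C (hnRNPc in the titles), hnRNPA1 (4B10), hnRNPI (SH54) and RBM9 for RBFOX2. Each protein was pulled down with 1 antibody, so protein and antibody cannot be told apart. Another 8 libraries titled noUV_noPAGE, 2 for each protein, left out the crosslinking, as their titles say, and served as background.

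hnRNP C is an abundant nuclear protein that forms tetramers and packages newly made transcripts into ribonucleoprotein particles. It binds runs of uridines, which are common in introns and in antisense Alu elements, and it is known to compete there with the splicing factor U2AF2, so that Alu-derived exons are kept out of messenger RNA. hnRNPA1 is a splicing repressor that binds UAG-like motifs, hnRNPI (also called PTB) binds pyrimidine-rich stretches, and RBFOX2 binds GCAUG motifs near alternative exons.

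The measurements are peaks, short stretches of a transcript where reads pile up, each listed under an Ensembl gene identifier. The lists do not pair these identifiers with gene names, and 0 of them matched the gene table at hand. Genes are therefore given by their span on hg19, the stretch from the first to the last peak listed under the identifier in the 16 libraries, and not by name. No intron, exon or UTR could be assigned and no sequence is shown. Peaks were counted per gene and divided by the number of peaks in the library, giving peaks per 100000 peaks. This share is not corrected for how much RNA a gene makes.

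The hnRNP C lists held 379280 to 487908 peaks in 13387 to 14439 genes. The hnRNPA1 lists were slightly longer, with 450313 to 523402 peaks, the hnRNPI lists shorter, with 335107 to 353415, and the RBFOX2 lists shortest, with 157375 to 161434. Total sequencing depth is unknown, so list length and depth cannot be told apart. Reads over the listed peaks came to 6754513 to 10024447 in hnRNP C libraries and 8648385 to 9961984 in RBFOX2 libraries. They came to 9532783 to 12349790 in hnRNPA1 libraries and 8486656 to 9788478 in hnRNPI libraries. How far depth sets list length was not tested. Over the 10093 genes with a mean of at least 5 peaks, the Pearson correlation of log2 shares between hnRNP C libraries was 0.972 to 0.981. It was 0.885 to 0.909 with hnRNPA1 libraries, 0.741 to 0.786 with hnRNPI libraries and 0.509 to 0.547 with RBFOX2 libraries. These correlations are across genes, which are not independent replicates. The labels do not say that replicates came from separate cultures, so the p-values below measure the spread between libraries, which may be technical.

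The first question was which genes hold a larger or smaller share of hnRNP C peaks than of the other proteins' peaks. A linear model (limma) compared log2(peaks per 100000 + 1) between hnRNP C and the mean of the 3 other proteins, with RecJ as a covariate. A gene was called at a Benjamini-Hochberg adjusted p below 0.05 and a difference of at least 1 on that scale. Of the genes tested, 489 were higher in hnRNP C (4.84%) and 699 were lower (6.93%). The median difference over all genes tested was 0.10, so a gene at 0 lies slightly below the typical gene. Against hnRNPA1 alone, 218 genes were higher (2.16%) and 403 lower (3.99%). Against hnRNPI, 1656 were higher (16.4%) and 1043 lower (10.3%), and against RBFOX2, 2081 were higher (20.6%) and 2042 lower (20.2%).

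Fewer genes set hnRNP C apart from each of the 3 proteins. With the same threshold met against hnRNPA1, hnRNPI and RBFOX2 separately, 36 genes were higher in hnRNP C (0.357%) and 111 were lower (1.1%). In all 36 the 4 hnRNP C libraries lay above the 12 others, and in all 111 they lay below them. Over all genes tested this held for 1003 genes (9.94%) upward and 484 (4.8%) downward. The call was made on these same libraries, so the separation in the called genes largely follows from it and is no separate support. The 36 higher genes had a median of 9.46 hnRNP C peaks per 100000, against 3.11 for hnRNPA1, 2.77 for hnRNPI and 2.50 for RBFOX2. The 111 lower genes had a median of 0.81 in hnRNP C, against 3.47, 4.51 and 10.5 in the same order. How many genes were called moved with the pseudocount: adding 5 in place of 1 left 1 gene higher and 6 lower than every other protein, while adding 0.2 gave 69 and 265. With the same number of peaks taken from each library, those with the smallest p, 158 were higher and 375 lower, and these included 9 of the 36 and 47 of the 111.

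Among the 36 genes, the largest difference to the mean of the 3 proteins was at ENSG00000120656, at chr1:28917175-28969574 on the minus strand, a span of 52.4 kb. Its share was 10.7 and 11.2 peaks per 100000 in the hnRNP C libraries without RecJ and 11.6 and 10.7 in those with RecJ. The 4 hnRNPA1 libraries had 4.40, 4.20, 5.55 and 3.65, the hnRNPI libraries 1.13, 0.877, 0.584 and 0, and the RBFOX2 libraries 1.27, 3.72, 4.35 and 0.624. Every hnRNP C library was thus above every other library, with hnRNPA1 the nearest protein and hnRNPI almost without peaks. The difference to the mean of the others was 2.01 ± 0.22 (SE) on the log2 scale, with an adjusted p of 2.7e-08 in limma. Against hnRNPA1 alone it was 1.15, with an adjusted p of 0.00116.

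Along this gene, 177 of the 196 hnRNP C peaks (90.3%) lay in the first 22 kb of the span, as did 77 of the 87 hnRNPA1 peaks (88.5%). Joining the peaks of the 16 libraries where they overlapped gave 113 regions. Of these, 15 held a peak in all 4 hnRNP C libraries, 7 of them with no peak in the other 12 libraries. One was chr1:28949102-28949313, with 16 to 26 reads over the peak in the 4 hnRNP C libraries. A region with the opposite pattern lay nearer the 5′ end, at chr1:28955705-28955833, where all 4 hnRNPA1 libraries and no hnRNP C library had a peak. Regions were counted in named genes only, so no share over all genes stands beside these counts.

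The second largest difference among the 36 was at ENSG00000269693, at chr19:12636613-12691158 on the minus strand. The hnRNP C libraries had 9.06, 8.90, 8.70 and 8.40 peaks per 100000. The hnRNPA1 libraries ranged from 2.43 to 3.25, the hnRNPI libraries from 2.39 to 3.96 and the RBFOX2 libraries from 0 to 0.635. The groups did not overlap, and the difference to the mean of the others was 1.84 ± 0.14 (SE, limma adjusted p = 9.9e-11). Of the peaks listed here, 91.5% were also listed under another gene identifier, so most of them cannot be given to this gene alone. With only peaks listed under 1 gene alone, 34 of the 36 genes could be tested, and 33 passed against the mean of the 3 proteins. ENSG00000269693 was not among these, because too few of its peaks were left for the filter.

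**Figure D1:**
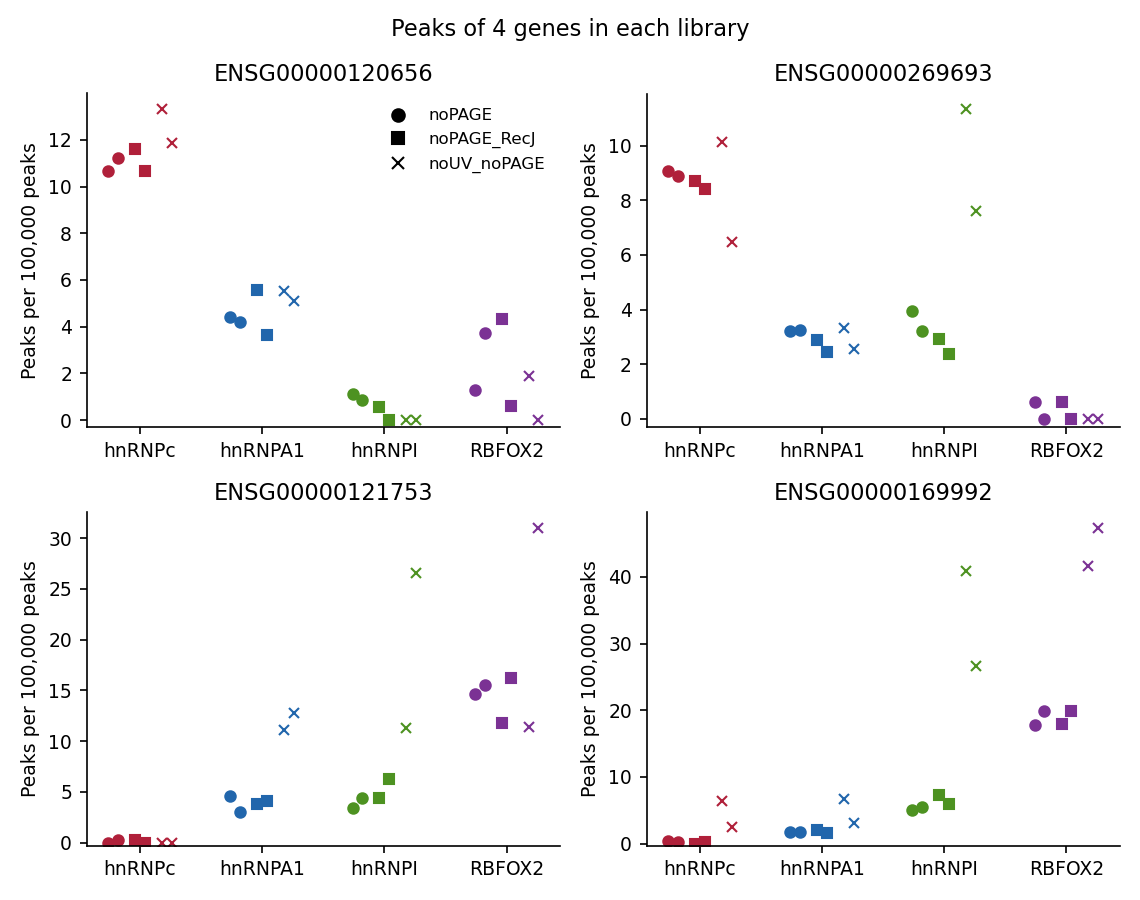
Peaks per 100000 peaks of the library (vertical axis) for the 2 genes with the largest difference among the 36 higher genes (top) and the 2 among the 111 lower genes (bottom), by protein. Each symbol is 1 library, with circles for noPAGE, squares for noPAGE_RecJ and crosses for noUV_noPAGE; in the top panels the 4 crosslinked hnRNP C libraries lie above the other 12, and in the bottom panels they are lower than the other 12.

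The remaining 8 of the 10 largest differences among the 36 genes lay between 1.52 and 1.76. Both chr19:12722321-12742625 (5.13 ± 0.69 peaks per 100000, SD, n = 4) and chr19:12689341-12750077 (5.46 ± 0.81) overlap or lie next to the gene just described, and the hnRNPI libraries had no peak at all in the former. At chr17:56770107-56811374 the hnRNP C share was 13.8 ± 0.91, against 6.15 in hnRNPA1, 2.55 in hnRNPI and 3.28 in RBFOX2. At chr16:15737287-15820122 it was 14.6 ± 2.10, against 4.58, 4.44 and 4.22. This last gene had about the same share in all 3 other proteins.

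Single regions of these genes were then set side by side. At chr17:56770107-56811374, 19 of 148 regions held a peak in all 4 hnRNP C libraries, and 12 of these held none in the others. One of the 12, chr17:56810554-56810703, lay near the 3′ end of the span and had 21 to 42 reads over the peak. At chr8:55047820-55060383, with 4.65 ± 0.38 peaks per 100000, 7 of 8 such regions held none in the others. No region of the 10 genes held a peak in all 16 libraries. Not every gene showed such regions: chr19:12689341-12750077 had 1 region shared by the 4 hnRNP C libraries, and it also held a peak of another protein. Over all genes, 26.6% of hnRNP C peaks overlapped a hnRNPA1 peak, 18.8% a hnRNPI peak and 11.5% a RBFOX2 peak. Peaks without a counterpart in a given other protein were thus the rule and are not shown to be particular to these genes.

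Chromosomes 17 and 7 held 6 of the 36 higher genes each and chromosome 19 held 5, while they hold 602, 531 and 602 of the 10093 genes tested. The same chromosomes held 4, 6 and 7 of the 111 lower genes, in that order. Of the 5 higher genes on chromosome 19, 4 lay within 1 Mb of another of the 36. The 3 higher genes on chromosome 10, at chr10:70102964-70166596, chr10:70173918-70231700 and chr10:70481553-70551243, had differences of 1.41, 1.31 and 1.21 to the mean of the others. The share of all hnRNP C peaks on chromosome 19 was 3.38% ± 0.025 (SD, n = 4), above hnRNPA1 (2.62%) and hnRNPI (2.66%) and below RBFOX2 (6.77%).

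Among the 111 lower genes, the largest difference was at ENSG00000121753, at chr1:32193161-32229366 on the minus strand. Without RecJ the hnRNP C lists held 0 and 1 peaks of it, and with RecJ 1 and 0. The hnRNPA1 libraries had 3.06 to 4.60 peaks per 100000, the hnRNPI libraries 3.40 to 6.27 and the RBFOX2 libraries 11.8 to 16.2. The difference to the mean of the others was -2.74 ± 0.13 (SE, limma adjusted p = 9.3e-14), and no library of another protein came near the hnRNP C values. Of 111 regions along this gene, 109 held no hnRNP C peak.

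ENSG00000169992, at chr17:7308318-7322889 on the plus strand, showed where such peaks were missing. Its hnRNP C lists held 2, 1, 0 and 1 peaks, none of them in the first 4 kb of the span. In that stretch lay 26 of 35 hnRNPA1 peaks (74.3%), 53 of 82 hnRNPI peaks (64.6%) and 104 of 121 RBFOX2 peaks (86.0%). The difference to the mean of the others was -2.59 ± 0.12 (SE, limma adjusted p = 3.6e-14). The region chr17:7309195-7309562 held a peak in all 12 libraries of the other proteins, with 61 to 251 reads over it, and in no hnRNP C library.

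**Figure D2:**
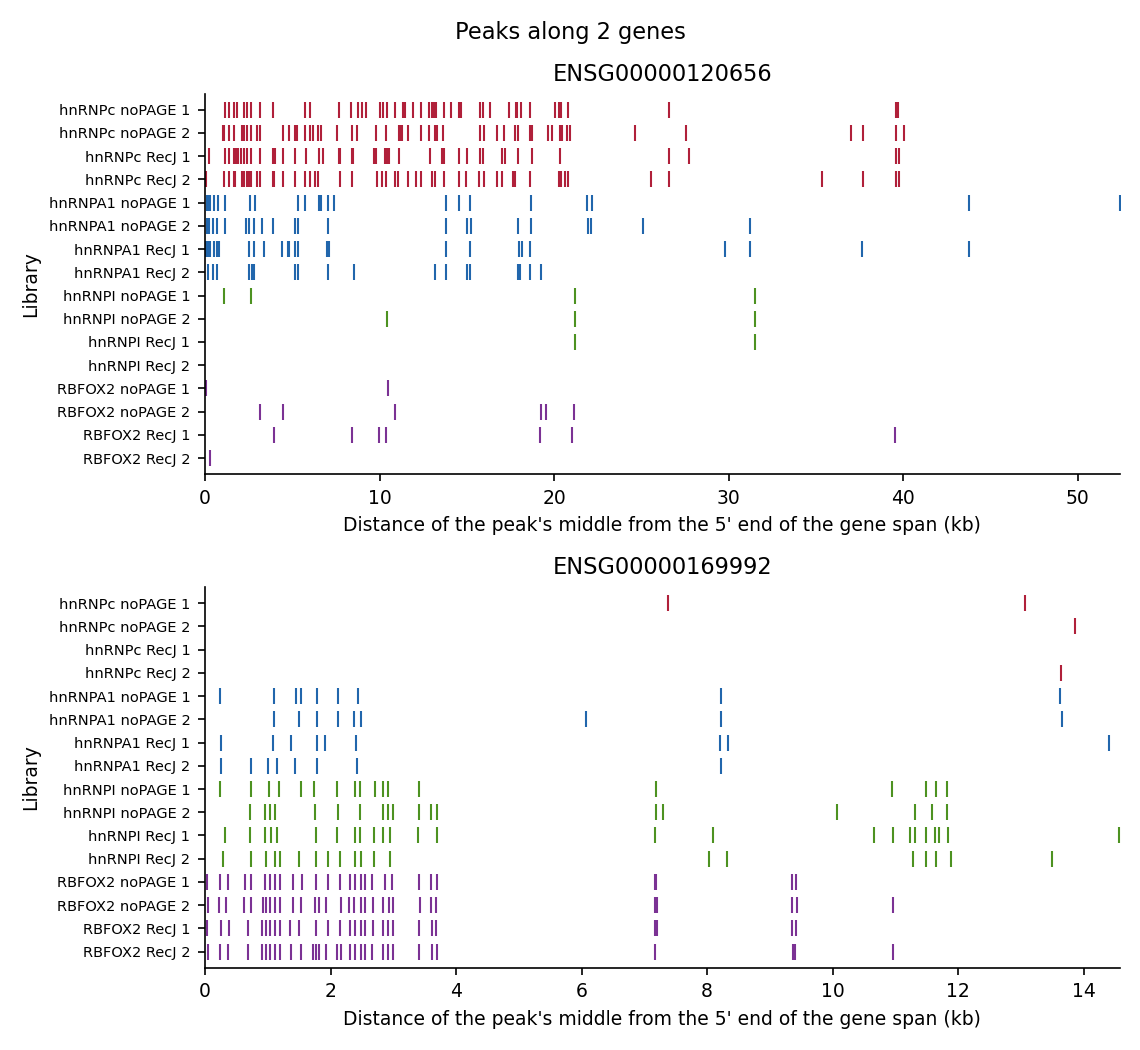
Peaks along the gene with the largest difference among the 36 higher genes (top) and the gene with the second largest among the 111 lower genes (bottom). The horizontal axis is the distance of the peak's middle from the 5′ end of the gene span in kb, each row is 1 library and each tick 1 peak; in the top panel 177 of 196 hnRNP C peaks lie in the first 22 kb, and in the bottom panel none of the 4 hnRNP C peaks lies in the first 4 kb.

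The other 8 of the 10 largest differences among the 111 genes lay between -2.54 and -2.38. At chr8:143560016-143626228 and at chr1:154975325-154989573 all 4 hnRNP C libraries had 0 peaks, while the lowest of the other 12 libraries had 1.20 and 2.48 peaks per 100000. At chr11:1411552-1482755 the hnRNP C share was 0.78 ± 0.49 (SD, n = 4), against 3.57 in hnRNPA1, 3.85 in hnRNPI and 41.4 in RBFOX2. RBFOX2 had the highest share at all 10 of these genes. The contrast with hnRNPA1, whose lists are closest in length to those of hnRNP C, lay between -2.12 and -1.20 for the 10.

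The genes that took most hnRNP C peaks were very long and were not the ones that set it apart. The largest share was 199 ± 10.7 peaks per 100000 (SD, n = 4) at chr13:93879127-95058736, with 225 in hnRNPA1, 204 in hnRNPI and 139 in RBFOX2. Next came chr7:69063932-70257822 with 196 ± 4.72, against 226, 243 and 140. At both genes the mean hnRNP C share lay between that of RBFOX2 and those of the other proteins. At the first, the hnRNP C libraries (189 to 214) overlapped those of hnRNPI (201 to 208). The log2 difference to hnRNPI there was -0.039, with an adjusted p of 0.403 in limma. The third, chr18:36787263-37380258, had 143 ± 14.3, against 143, 162 and 132.

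Gene length gave another view of where hnRNP C peaks lie. hnRNP C took 35.3% ± 0.47 of its peaks (SD, n = 4) from genes with a span of 30 to 100 kb, more than hnRNPA1 by 3.50, hnRNPI by 6.27 and RBFOX2 by 2.40 percentage points. This class was chosen once the values were known. In genes of at least 100 kb its share was 49.8% ± 0.58, below hnRNPA1 (53.8%) and hnRNPI (59.6%) and above RBFOX2 (34.6%). In every one of these comparisons the 4 hnRNP C libraries did not overlap the other 4. This gives p = 0.0286 in an exact two-sided permutation test, the smallest p that 4 against 4 libraries can give. Pairwise tests here and below relabelled libraries freely, also between those with and without RecJ. Relabelling within the RecJ groups could not give a pairwise p below 0.05. Adjusted over its family of 15 tests the p for the 100 kb share was 0.0306, and adjusted over the 12 added tests that for the 30 to 100 kb class was 0.0286.

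Against the 12 others as 1 group, the share in genes of at least 100 kb did not differ beyond the spread, since hnRNP C lies between proteins on both sides of it. The difference was 0.487 percentage points (exact permutation p = 0.879 over 784 relabellings within the RecJ groups, adjusted p = 0.879). With the same number of peaks taken from each library, it was -3.69 points.

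**Figure D3:**
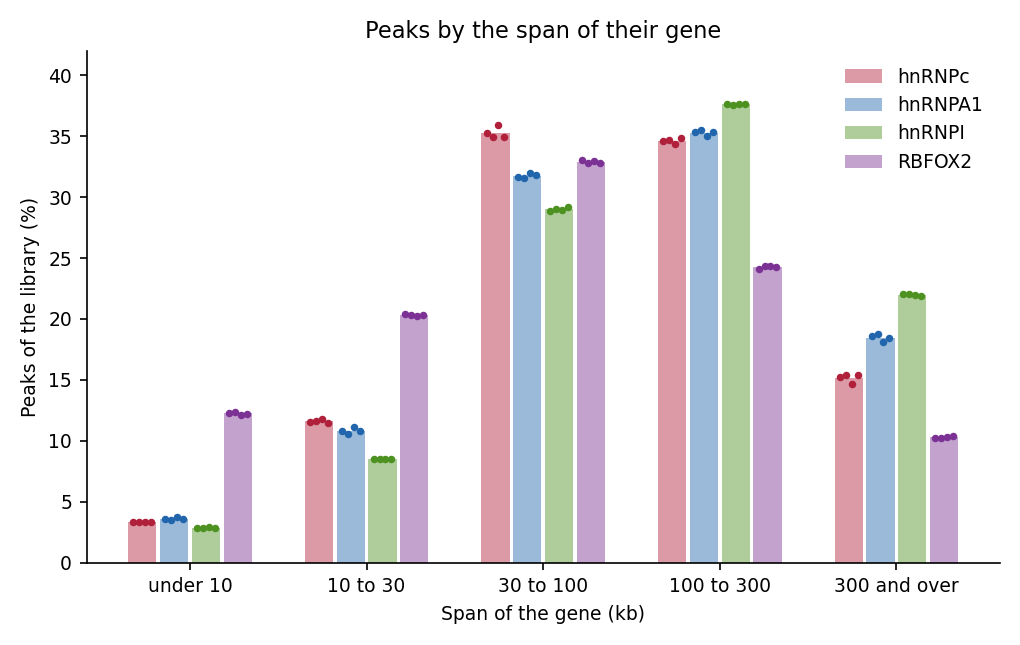
Percent of each library's peaks (vertical axis) by the span of their gene in kb (horizontal axis) for the 4 proteins. Bars are means of 4 libraries and points the libraries; hnRNP C has the tallest bar at 30 to 100 kb, 35.3%.

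Gene by gene, the 30 to 100 kb class also stood highest against the mean of the 3 proteins, but not against each of them. Among the genes tested, the median log2 difference to the mean of the 3 proteins was -0.36 for spans under 10 kb, 0.07 for 10 to 30 kb, 0.24 for 30 to 100 kb, 0.12 for 100 to 300 kb and -0.11 for 300 kb and over. Spans of 30 to 100 kb held 24 of the 36 genes higher than every other protein, while 38.1% of all genes tested have such spans. Of the 1026 genes under 10 kb, 181 were lower in hnRNP C (17.6%) and 11 higher (1.07%). The contrasts with single proteins differed. Against hnRNPA1 the median was highest at 30 to 100 kb (0.08), and against hnRNPI at 10 to 30 kb (0.43, with 0.26 at 30 to 100 kb). Against RBFOX2 it rose with the span, from -1.26 under 10 kb to 0.40 at 30 to 100 kb and 0.76 at 300 kb and over. For genes of 300 kb and over it was -0.39 against hnRNPA1 and -0.74 against hnRNPI.

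hnRNP C peaks were also spread over many genes. The 100 genes with most peaks held 8.40% ± 0.16 (SD, n = 4) of them, against 9.15% in hnRNPA1, 9.96% in hnRNPI and 7.41% in RBFOX2. Each pairwise difference had an exact permutation p of 0.0286 (adjusted p = 0.0306), and with fewer peaks counted only the one against RBFOX2 kept its call. With p below 1e-05 the adjusted exact permutation p was 0.122 against hnRNPA1 and 0.314 against hnRNPI. With the same number of peaks in each library it was 0.0612 against hnRNPA1, and the share was above that of hnRNPI by 0.247 points. The hnRNP C peaks were the narrowest, with a median width of 57.8 nt ± 0.50 against 61.8, 67.5 and 59 nt. When only as many peaks as in the shortest list were kept, hnRNP C peaks were wider than those of RBFOX2 by 15.8 nt.

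The third question was where in a gene hnRNP C peaks lie. Each peak's middle was placed between the 5′ end of the span (0) and the 3′ end (1), for the 10528 genes with a span of at least 10 kb and at least 20 peaks. The median position of hnRNP C peaks was 0.402 and 0.403 in the libraries without RecJ and 0.400 and 0.404 in those with it. It was 0.424 in hnRNPA1, 0.418 in hnRNPI and 0.506 in RBFOX2, and no library of these overlapped those of hnRNP C. The differences were -0.0222, -0.0155 and -0.104, each with an exact permutation p of 0.0286 (adjusted p = 0.0306). Against the 12 others together the difference of -0.0472 had an exact permutation p of 0.0332 and did not pass after adjustment (adjusted p = 0.0829).

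The profile of hnRNP C along the gene was read in 10 equal bins of the span, bin 1 at the 5′ end. Bin 2 held 13.2% ± 0.078 of its peaks (SD, n = 4), more than hnRNPA1 by 1.11, hnRNPI by 0.721 and RBFOX2 by 3.98 percentage points. Its share then fell to 7.13% in bin 9, below 7.94%, 7.66% and 10.3% in the same order, and stood at 8.97% in bin 10. hnRNPI did not show this step at the end, with 7.66% and 7.22%, while hnRNPA1 stood at 8.88% in bin 10. The bin 10 share of hnRNP C did not differ from that of hnRNPA1 beyond the spread (0.0933 points, exact permutation p = 0.143, adjusted p = 0.143). That comparison turned on which peaks were counted. It was 0.906 points with p below 1e-05 and 1.13 points with the same number of peaks (exact permutation p = 0.0286, adjusted p = 0.033 in both), and -0.198 points with neighbouring peaks joined into clusters (exact permutation p = 0.0286).

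The outermost kilobase at each end did not simply repeat the outer bins. Within 1 kb of the 3′ end of the span lay 2.53% ± 0.058 of hnRNP C peaks, more than in hnRNPA1 (2.06%) and hnRNPI (1.37%) and less than in RBFOX2 (4.00%). Within 1 kb of the 5′ end lay 1.33% ± 0.055, the least of the 4 proteins (1.87%, 1.55% and 6.08%). Bin 1 as a whole, which was not tested, held 14.4% of hnRNP C peaks, against 14.3%, 13.1% and 15.6% in the same order. Bin 2 and both outer kilobases were also chosen once the values were known, and each of their pairwise tests had an exact permutation p of 0.0286 (adjusted p = 0.0286 over 12 tests). Since the ends are those of the outermost peaks, they need not be the annotated ends of the transcript.

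**Figure D4:**
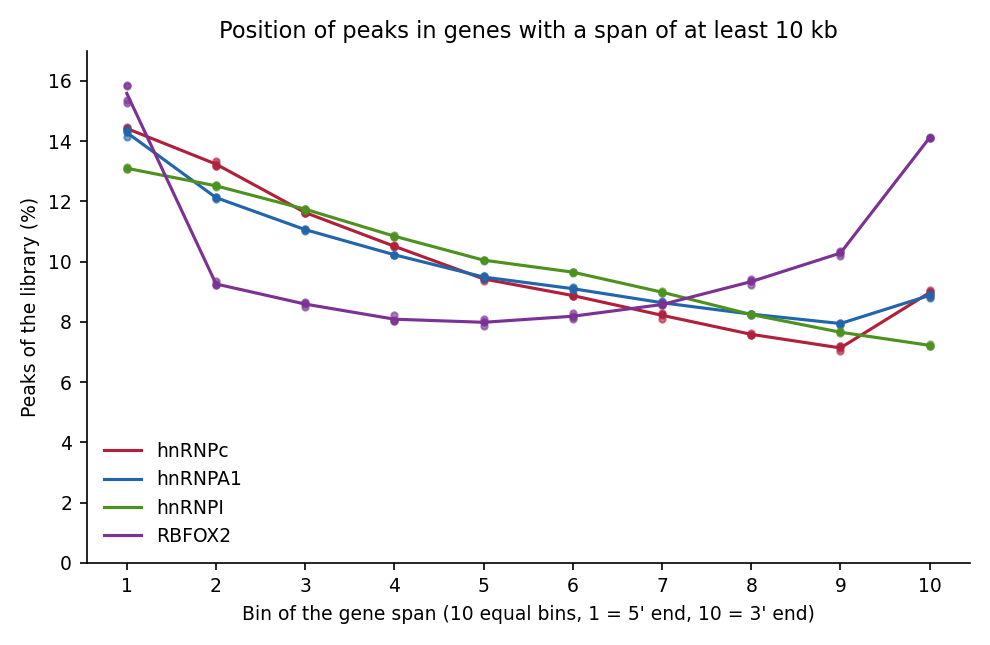
Percent of a library's peaks in 10 equal bins of the gene span, from the 5′ end (1) to the 3′ end (10), in genes with a span of at least 10 kb. Lines are means of 4 libraries and points the libraries; hnRNP C is at 13.2% in bin 2, above the other proteins, and at 7.13% in bin 9, lower than they are.

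The same genes were also compared between proteins, a test chosen once these results were known. For 1256 genes with at least 20 peaks in each of the 16 libraries, the mean position of a gene's peaks in each library was compared by limma. It was nearer the 5′ end in hnRNP C than in the mean of the 3 proteins for 607 genes (48.3%) and nearer the 3′ end for 220 (17.5%), at an adjusted p below 0.05, with a median difference of -0.0246. Nearer the 5′ end were 478 genes against hnRNPA1 (38.1%), 543 against hnRNPI (43.2%) and 580 against RBFOX2 (46.2%), and nearer the 3′ end were 142 (11.3%), 306 (24.4%) and 352 (28.0%). Against all 3 proteins at once, 182 genes (14.5%) were nearer the 5′ end and 47 (3.74%) nearer the 3′ end.

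The largest shift toward the 5′ end was at chr11:71714183-71790976 on the minus strand. The mean position of hnRNP C peaks in a library averaged 0.316 ± 0.028 there (SD, n = 4), against 0.614 in hnRNPA1, 0.424 in hnRNPI and 0.845 in RBFOX2. At chr22:20783573-20849652 the order was the same, with 0.247 against 0.511, 0.343 and 0.805. In the same set, the largest shift the other way was at chr5:177638091-177659759 on the minus strand, with 0.592 ± 0.016 against 0.343, 0.189 and 0.215. At chr11:65190265-65212926 hnRNP C peaks also lay further 3′, at 0.580 ± 0.020 against 0.263, 0.339 and 0.245. The adjusted p in limma was at most 2.7e-05 against each protein in these 4 genes. Since they were picked for their calls and for the lack of overlap, neither is separate support.

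Peaks were then compared by position on the genome. Of the peaks of a hnRNP C library, 67.5% overlapped a peak of the other 3 hnRNP C libraries by at least 1 nt on the same strand. The 4 joined hnRNPA1 lists overlapped 26.6%, the hnRNPI lists 18.8% and the RBFOX2 lists 11.5%. Moving the hnRNP C peaks by 1000 nt along the same strand gave 23.1%, 25.3%, 15.4% and 8.96%. Overlap with hnRNPA1 was therefore close to that of moved peaks, although the gene shares of the 2 proteins were the most alike. When at least 0.5 of the peak had to be covered, the overlap with hnRNPA1 was 18.3% and that of moved peaks 14.3%. With only peaks at p below 1e-05 it was 20.1%, and 21.4% for moved peaks.

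**Figure D5:**
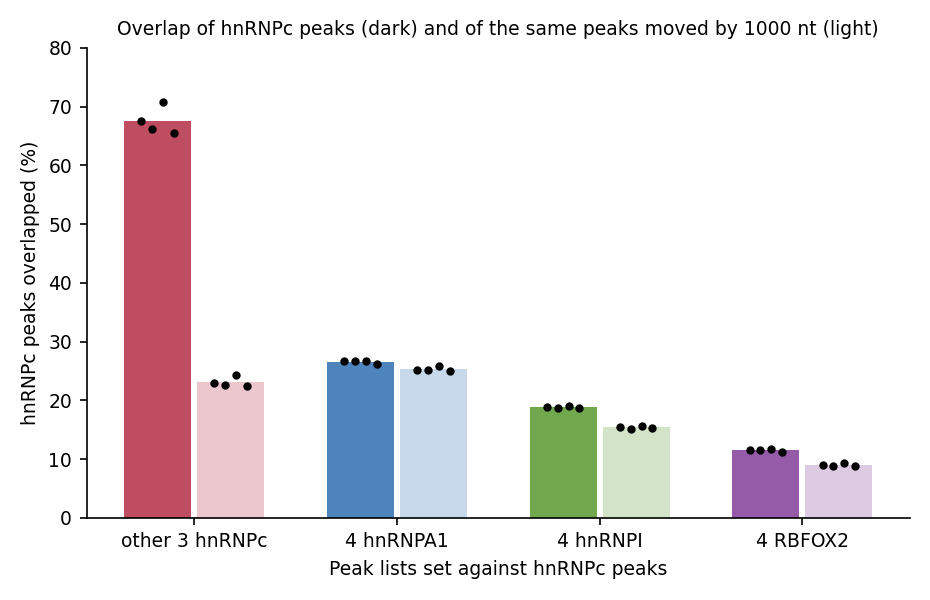
Percent of hnRNP C peaks overlapped by at least 1 nt on the same strand (dark bars) and after moving them by 1000 nt (light bars), for the other 3 hnRNP C libraries and the joined 4 lists of each other protein. Bars are means over the 4 hnRNP C libraries and points the libraries; the hnRNPA1 bars are at 26.6% and 25.3%.

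The control libraries without crosslinking gave the background. The 2 hnRNP C libraries titled noUV_noPAGE still held 187729 and 278452 peaks, against 44086 to 196278 in those of the other proteins. Across genes their shares correlated at 0.853 to 0.910 with the crosslinked hnRNP C libraries. With the crosslinked libraries of the other proteins the correlation was 0.737 to 0.805 for hnRNPA1, 0.608 to 0.675 for hnRNPI and 0.584 to 0.614 for RBFOX2. Thus the background libraries were closest to crosslinked libraries of the same antibody.

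The genes called against every other protein looked alike without crosslinking. In 33 of the 36 higher genes the mean share of the noUV hnRNP C libraries was above those of all 3 other proteins' noUV libraries, against 29.2% of all genes tested. In 90 of the 111 lower genes it was below all 3, against 15.2%. At ENSG00000120656 the noUV hnRNP C libraries had 13.3 and 11.9 peaks per 100000, above each of the 4 crosslinked ones. At ENSG00000121753 both had 0 peaks, while at ENSG00000169992 they had 6.39 and 2.51, above each crosslinked hnRNP C library. The median position of noUV hnRNP C peaks was 0.420 and 0.414, against 0.489 to 0.610 in the noUV libraries of the other proteins. Genes of 30 to 100 kb held 37.2% of noUV hnRNP C peaks (mean of 2 libraries). The noUV means for hnRNPA1, hnRNPI and RBFOX2 were 32.9%, 30.9% and 34.2%. Bin 2 of the span held 12.8% without crosslinking, against 9.74%, 10.2% and 6.12% in the same order. For bin 10 these values were 13.2%, against 14.1%, 14.8% and 18.9%. What the noUV libraries contribute to the crosslinked ones was not tested, and with 2 libraries per protein these values carry no test.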

How the data were processed

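The deposited files are peak lists in BED form, 1 per library. Per the submitters' processing notes the tools were bcl2fastq, STAR 2.7.3a and UMI-tools 1.0.1 and the build was hg19. CLIPper is named as caller in the file names. Each peak carries a p-value that the authors' caller gave it, whose adjustment is not stated. The last number of the peak name was read as the reads over the peak, which no header states.

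Peaks were counted per gene identifier. Genes were tested with limma 3.58.1 (trend, RecJ as covariate) in R 4.3.3, and library measures with exact permutation tests. Overlaps used bedtools 2.31.1. Scripts were checked on simulated data. Named genes are the 10 with the largest difference each way among those called against every protein, and the 10 with the largest hnRNP C share. Replicate numbers did not pair libraries. Planned gene lists, markers, intron shares and T-run counts could not be applied without gene names and an hg19 genome. The members and lists were chosen with earlier results of these data known.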

Additional observations from a re-analysis of the deposited data

Results flagged for a closer look

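Among 32 values of hnRNP C checked for a library far from the other 3 by Dixon's ratio, 5 had one, and chance gives about 1 in 20. The share of peaks overlapped by hnRNPA1 was 26.2% in the lowest library. At chr11:9482760-9549436, a gene higher in hnRNP C, the lowest library had 6.86 peaks per 100000. At 3 genes lower in hnRNP C, the library that stood apart had 0 (chr6:33388046-33421431), 0.615 (chr16:67862455-67872716) and 0.205 peaks per 100000 (chr11:17756697-17799137), where single peaks make up the difference.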

How the results depend on the processing

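Against the mean of the 3 proteins, the higher and lower genes numbered 1042 and 995 with a pseudocount of 0.2, 38 and 51 with 5, 246 and 131 with a mean of at least 20 peaks, 1123 and 983 with p below 1e-05, 929 and 1240 with the same number of peaks in each library, and 2182 and 616 with reads summed per gene. Against every protein they numbered 69 and 265, 1 and 6, 15 and 30, 135 and 201, 158 and 375, and 363 and 66 in the same order. These settings also change how many genes can be tested, and the cause was not tested further. With the same number of peaks, 17 of the 36 higher and 75 of the 111 lower genes could be tested. All of these kept their direction against the mean of the 3 proteins, and 12 and 74 passed, but only 9 and 47 still passed against every protein. All 36 and 111 kept their direction with both pseudocounts, no filter, centring and reads. With reads summed per gene, however, only 28 of the 36 and 28 of the 111 still passed against every protein. At p below 1e-05, 20 of the 36 and 72 of the 111 could be tested, and 11 and 53 passed against every protein. Leaving out 1 library gave 35 to 43 higher and 91 to 118 lower genes.

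Against the 12 others, with the same number of peaks the difference was -3.69 points for genes of at least 100 kb, 0.715 for bin 10 of the span and 1.26 for the 100 genes with most peaks, and with p below 1e-05 the last was 0.694. All were reversed from the values with all peaks, none of which passed the test. Leaving out 1 library moved the first from -0.878 to 1.43 points, turning its sign without single RBFOX2 libraries. In pairs, bin 10 of the span against hnRNPA1 was -0.198 points with clusters and -0.00537 in the RecJ libraries alone, and the 100 genes against hnRNPI 0.247 points with the same number of peaks. The width against RBFOX2 was 7.50 nt at p below 1e-05 and 15.8 nt with the same number of peaks. The position and 100 kb differences from each protein kept their direction in all alternatives run.

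Overlap by the other hnRNP C, hnRNPA1, hnRNPI and RBFOX2 lists was 56.2%, 18.3%, 13.5% and 8.02% with 0.5 of the peak covered, 77.4%, 20.1%, 13.7% and 8.002% at p below 1e-05, and 78.9%, 17.7%, 11.8% and 17.7% with the same number of peaks. Within genes, 969 and 405 of 1845 genes with at least 10 peaks were nearer the 5′ and the 3′ end with the same number of peaks, an alternative chosen after seeing the data.

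Same-numbered libraries with and without RecJ deviated together by -0.024 to 0.081, so the numbers were not taken as pairs. With the replicate block, 489 and 699 genes were called against the mean of the 3 proteins and 36 and 111 against every protein, and the pooled position difference had an exact permutation p of 0.0547, while pairwise measure tests could then go no lower than 0.0556. A limma interaction of protein with RecJ called 0 of 10093 genes (283 at an unadjusted p under 0.05).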
